A study of Ambystoma mexicanum with 49 samples.

Results

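The genes described here are the translation initiation and elongation factors of the axolotl, Ambystoma mexicanum, followed from the first cell stages to shortly before hatching. They were taken by name: every gene whose identifier begins with EIF1 to EIF6 or with EEF1 or EEF2, which gave 63 of the 15631 genes in the tables. The identifiers are human-style gene names as the submitters' tables give them, and no member was picked by its values. Because the rule reads names alone, it also takes in 7 genes that are known for other work. Among them are the 4 Argonaute genes that carry the older names EIF2C1 to EIF2C4. The 7 are included in all counts, medians and sums over the members, and several are described at the end.

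Translation begins when eIF2 brings the initiator tRNA to the small ribosomal subunit together with eIF1, eIF1A, eIF5 and the many-subunit eIF3. The cap-binding protein eIF4E, the scaffold eIF4G and the helicase eIF4A bring the mRNA, and the 4E-BP proteins block this step by occupying eIF4E. In elongation, eEF1A delivers each aminoacyl-tRNA, eEF1B recharges eEF1A with GTP, and eEF2 moves the ribosome along. An egg carries maternal mRNAs for these proteins and the embryo later makes its own: in Xenopus frogs, oocytes contain forms of eEF1A of their own, and the somatic form is transcribed from the midblastula on.

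The study sequenced RNA from single axolotl embryos, each freed of its jelly and raised at 20 °C, so that each library is 1 embryo and p-values measure the spread between embryos. There were 49 poly(A)-selected libraries from 17 stages, with 3 libraries at 15 stages and 2 libraries at stages 1 and 11. Another 5 libraries held total RNA depleted of ribosomal transcripts, 2 at stage 1 and 3 at stage 2. By the usual staging of this species, stages 2 to 8 run through cleavage to the blastula, stage 9 is late blastula, stages 10 to 12 are gastrulation, stages 14 to 19 are neurulation, stage 24 is tail bud and stage 40 lies shortly before hatching. The labels give no treatment, mutation or strain for any stage. A library is a whole embryo, so more RNA per cell and more cells of a kind cannot be told apart. Poly(A) libraries alone cannot tell more RNA from longer poly(A) tails, and total RNA was sequenced only at stages 1 and 2.

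Depth ran from 12048056 to 44855465 estimated counts in the poly(A) libraries and from 17363126 to 25502286 in the total RNA libraries. Of the egg genes, BTG4 had 2286 TPM at stage 1 and 3.73 at stage 12 and MOS had 18.96 and 0.945, whereas ZAR1 had 2.26 at stage 1, 9.38 at stage 10 and 6.83 at stage 12. The late genes CKM, APOA1 and HBE1 stood at 57.1, 53.5 and 16.3 TPM at stage 1 but at 4.72, 4.50 and 1.87 at stage 2. The part of that signal in the changes from stage 1 to 2 was not tested. Levels are TPM, each gene's share of a library after division by its length, scaled to 1 fixed total, whereas changes are log2 differences fitted with edgeR on scaled counts. The scaling matters between stages 8 and 12, where dividing by library size alone would have put the median of all genes at −0.863 on the log2 scale rather than near 0, and TPM ratios there are accordingly lower than the fitted changes. In several comparisons single embryos weighed heavily, among them replicates 2 and 3 of stage 2, replicate 1 of stage 10, replicate 2 of stage 11 and replicate 3 of stage 24, and the counts without them are given with those results. Of the 63 genes, 61 had enough counts to be tested in each kind of library. The exceptions were EIF1AX, at 0 in 48 of 49 poly(A) libraries, and EIF5A, at 0 in 47. Close copies such as EEF1A1 and EEF1A2, EIF4A1 and EIF4A2, EIF1 and EIF1B, and EIF5A and EIF5A2 may share reads, so the split within each of these pairs is uncertain.

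Most of these genes were expressed throughout. In the poly(A) libraries 55 of the 63 had at least 1 TPM in all 49 libraries, and 22 had at least 100 TPM in all of them. Together they made up 1.38% ± 0.0203 of all TPM at stage 1 and 1.33% ± 0.0454 at stage 8 (mean ± SD over the embryos of a stage, as for every share and ratio below). Their share then reached 1.66% ± 0.0698 at stage 9, 2.97% ± 0.0767 at stage 12 and 3.75% ± 0.0453 at stage 16, and it stood at 2.72% ± 0.0716 at stage 40. A few abundant genes made up most of the rise from stage 8 to 12. Mean TPM went from 341 to 8266 for EEF1A2, 423 to 2574 for EIF4A1, 497 to 2443 for EIF5 and 959 to 2847 for EIF1. Other members had lower means at stage 12, such as EIF3J (446, then 194 TPM) and EIF4E (66.8, then 49.9). The stage at which a gene had its highest mean level fell between stages 14 and 24 for 27 of the 63, or 42.9%, where 12.1% of the 15333 genes with a mean of at least 1 TPM at some stage had theirs. Only 9, or 14.3%, peaked at stages 2 to 8, against 28.8% of those genes. The 9 include EIF1AX, at 0 in 48 of 49 poly(A) libraries, and EEF1E1, EIF1AD and EIF2C3, known for other roles. The 27 include EIF2C2, also known for another role. The map of member levels by stage shows the shift to later peaks and also its exceptions, genes such as EIF2C4 that were highest at stage 1.

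**Figure D1:**
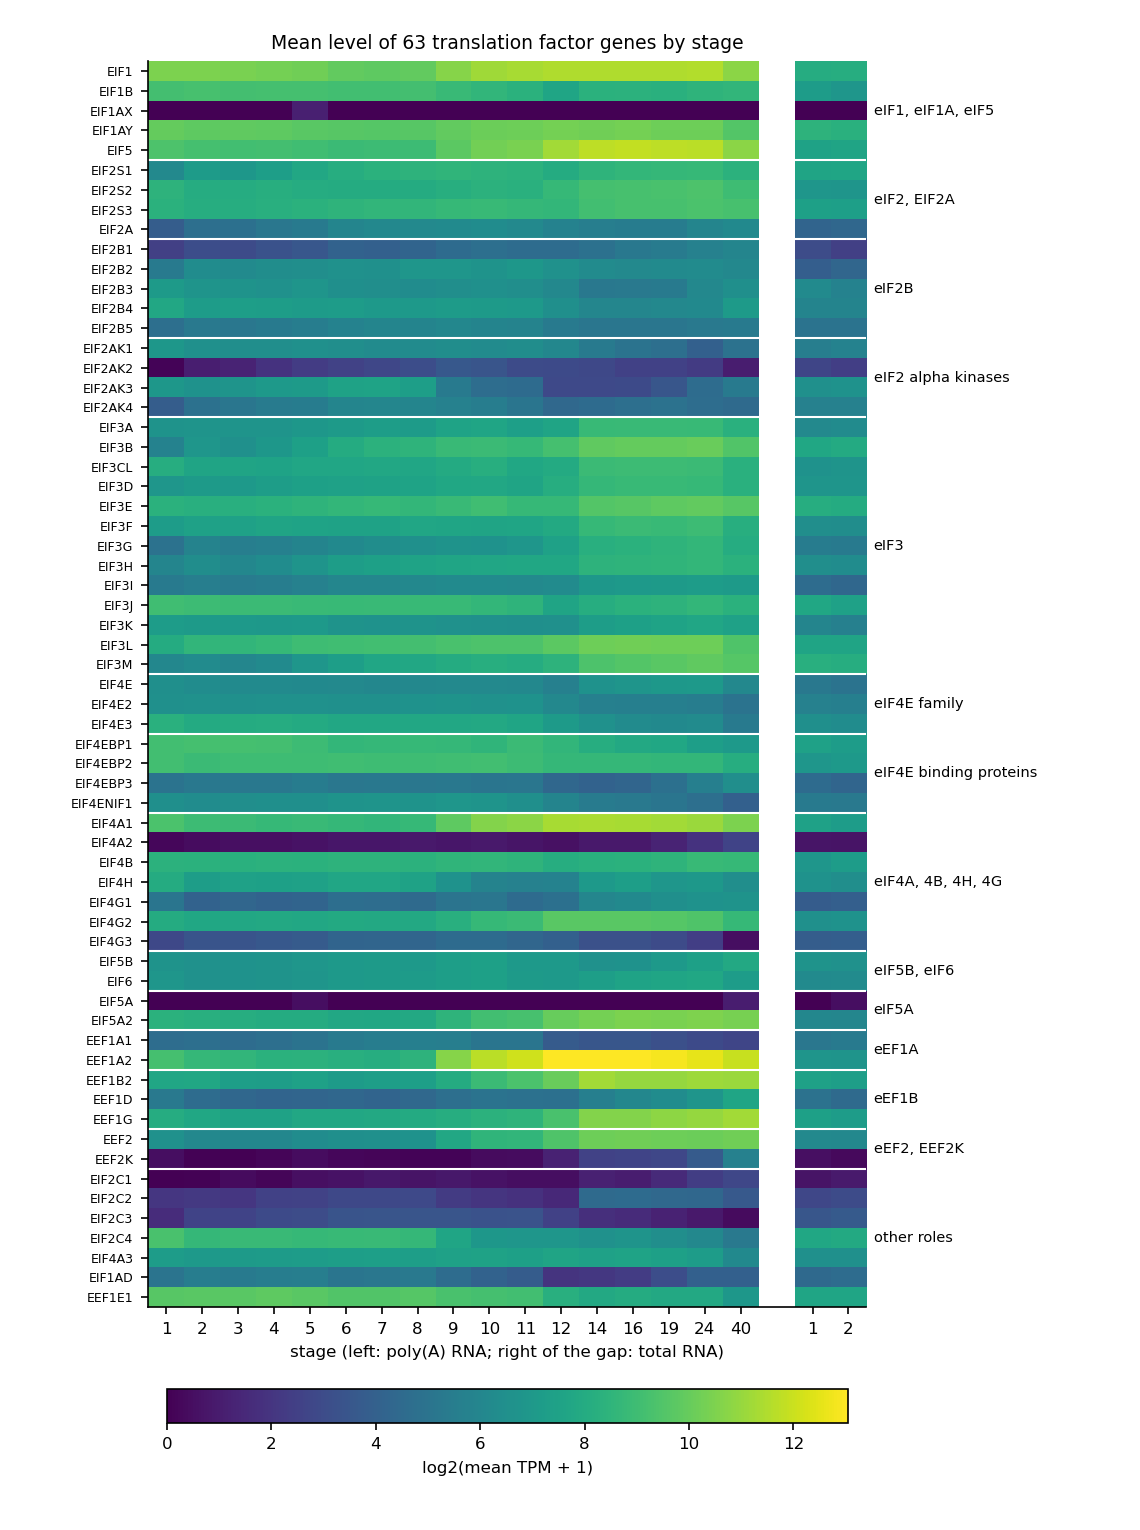
Level of each of the 63 genes, drawn as colour on the scale log2(mean TPM + 1), in rows grouped by role and columns for the 17 poly(A) stages and the 2 total RNA stages. Between stages 14 and 24, 27 of the 63 rows reach their highest mean, and EIF1AX and EIF5A stay at or near 0 throughout.

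The largest fitted change in any comparison made was in eEF1A, the carrier of aminoacyl-tRNA. In mammals EEF1A1 is the widespread form and EEF1A2 that of brain and muscle, and how the tables assigned the 2 names to axolotl transcripts is not stated. EEF1A2 stood at 414, 327 and 282 TPM in the 3 embryos of stage 8, at 1619, 1622 and 1729 in those of stage 9, and at 8849, 7826 and 8124 in those of stage 12. The 3 groups did not overlap, and every later embryo was above every stage 8 embryo. Its fitted change was 2.30 ± 0.25 (SE) from stage 8 to 9 and 5.57 ± 0.29 from stage 8 to 12, a 47.4-fold rise. From stage 24 to 40 it fell by 0.81 ± 0.24, from 5877, 5967 and 5985 to 3849, 3865 and 4249 TPM, a call that library size alone did not keep.

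EEF1A1 did the opposite at far lower levels. It had 47.8, 49.6 and 47.8 TPM at stage 8 and 13.3, 12.9 and 10.9 at stage 12, groups that did not overlap, and it fell by 1.00 ± 0.15 between them. It had risen by 0.54 ± 0.15 from stage 2 to 8, where EEF1A2 fell by 0.62 ± 0.24. That fall was not called under library size alone or in the fit of those stages alone. Nor was it called without replicate 2 of stage 2 or without replicate 2 or 3 of stage 8. EEF1A1 made up 12.7% ± 2.11 of the TPM of the pair at stage 8, 2.73% ± 0.157 at stage 9 and 0.150% ± 0.0156 at stage 12. In total RNA, which is normalized separately, its share of the pair was 24.3% ± 0.0599 at stage 1 and 28.2% ± 3.95 at stage 2. In poly(A) RNA it was 4.00% ± 0.0915 and 6.49% ± 2.45. The total RNA libraries were single-end, whereas the poly(A) libraries were paired-end and selected for poly(A). The part of these differences in the shares was not tested. The panels of paralogous genes show the opposite slopes of this pair beside the others.

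**Figure D2:**
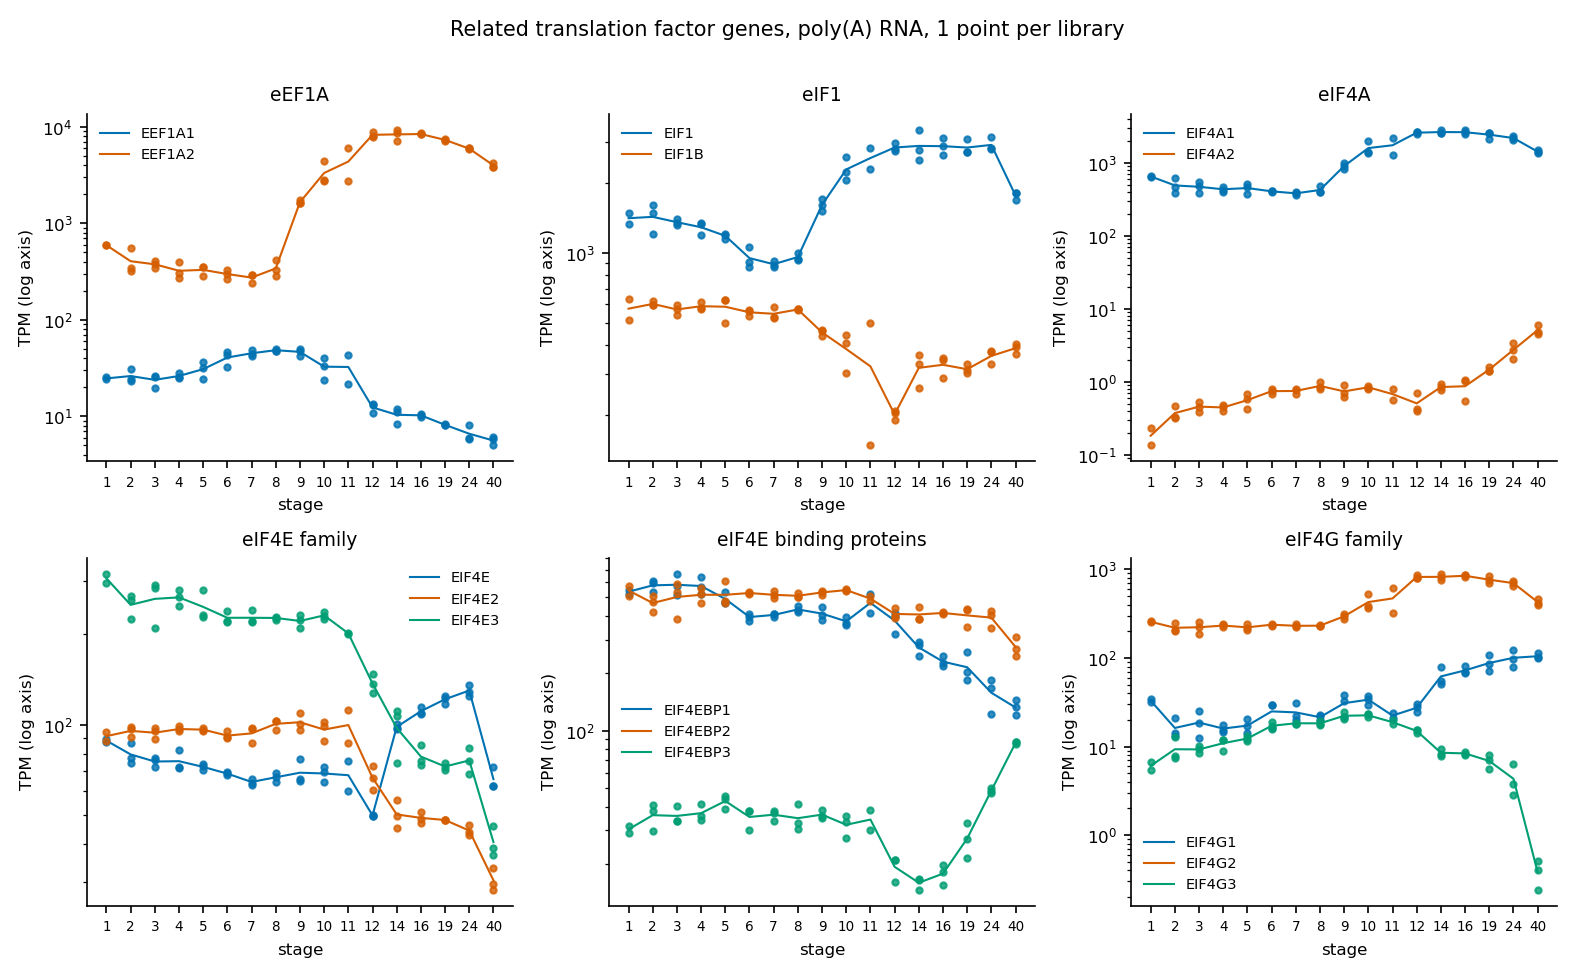
TPM on a log axis against stage for the members of 6 families (eEF1A, eIF1, eIF4A, the eIF4E family, the eIF4E binding proteins and the eIF4G family), with a point for each poly(A) library and lines through the stage means. EEF1A2 climbs from a mean of 341 TPM at stage 8 to 8266 at stage 12 while EEF1A1 goes from 48.4 to 12.4.

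The partners of eEF1A and the translocase rose over the same interval. EEF2, the translocase, had 117, 93.6 and 92.0 TPM at stage 8 and 679, 632 and 790 at stage 12, without overlap, a rise of 3.76 ± 0.22 or 13.5-fold. EEF1B2, the exchange subunit of eEF1B, had 167, 173 and 144 TPM at stage 8 and 1096, 941 and 1119 at stage 12, also without overlap, and rose by 3.67 ± 0.24. EIF5A2, of the hypusine-bearing factor that helps ribosomes through proline stretches, rose 8.73-fold. All 3 genes of eEF1B were called higher at stage 12, where 31% of all genes were, EEF1D not under library size alone. EEF1G, the scaffold subunit, and EEF1D, a further exchange subunit, went on rising from stage 12 to 19, by 1.76 ± 0.16 and 1.81 ± 0.23.

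EEF2K, the kinase that inactivates eEF2, was among the few members that came late. It was at or below 0.411 TPM in every library of stages 1, 2 and 8, at 1.33, 1.37 and 1.49 TPM at stage 12, at 8.68, 8.95 and 19.8 TPM at stage 24, and at 47.3, 48.0 and 59.1 at stage 40. The stage 24 and 40 embryos did not overlap, and the rise between them was 1.85 ± 0.49. Its stage 1 mean of 0.395 TPM, from which it was called lower at stage 2, is so small that it must be read beside a trace of late transcripts in the stage 1 libraries. There, 184 genes of late stages stood at 0.489% and 0.986% of their summed stage 40 level, and the higher share would give EEF2K 0.508 TPM. Those 184 genes were picked from these same libraries, as high at stage 40 and nearly absent from stage 3 to 8. EEF2K is 1 of them, so the share is not independent of it. The part of that trace in the fall of EEF2K was not tested.

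Counted over all members, the swing upward lay between stages 8 and 19. From stage 8 to 12, 44 of the 61 tested members were called higher at an adjusted p under 0.05, where 31% of all 14437 genes were, and 10 were called lower, where 31.5% were. The members' median change was 0.80, that of all genes 0. Under library size alone, these counts were 20 higher and 21 lower, and 30 of the 54 calls kept their direction while 6 were called the other way. The median of all genes was −0.863 under that scaling. The shares of all genes called, in every comparison, are from edgeR with TMM scaling. They were not counted under the other settings. From stage 12 to 19, 37 were called higher against 32.8% of all genes and 9 lower against 32.5%, with a member median of 0.76, and all 46 calls held under library size alone. The plot of changes by role shows both steps.

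**Figure D3:**
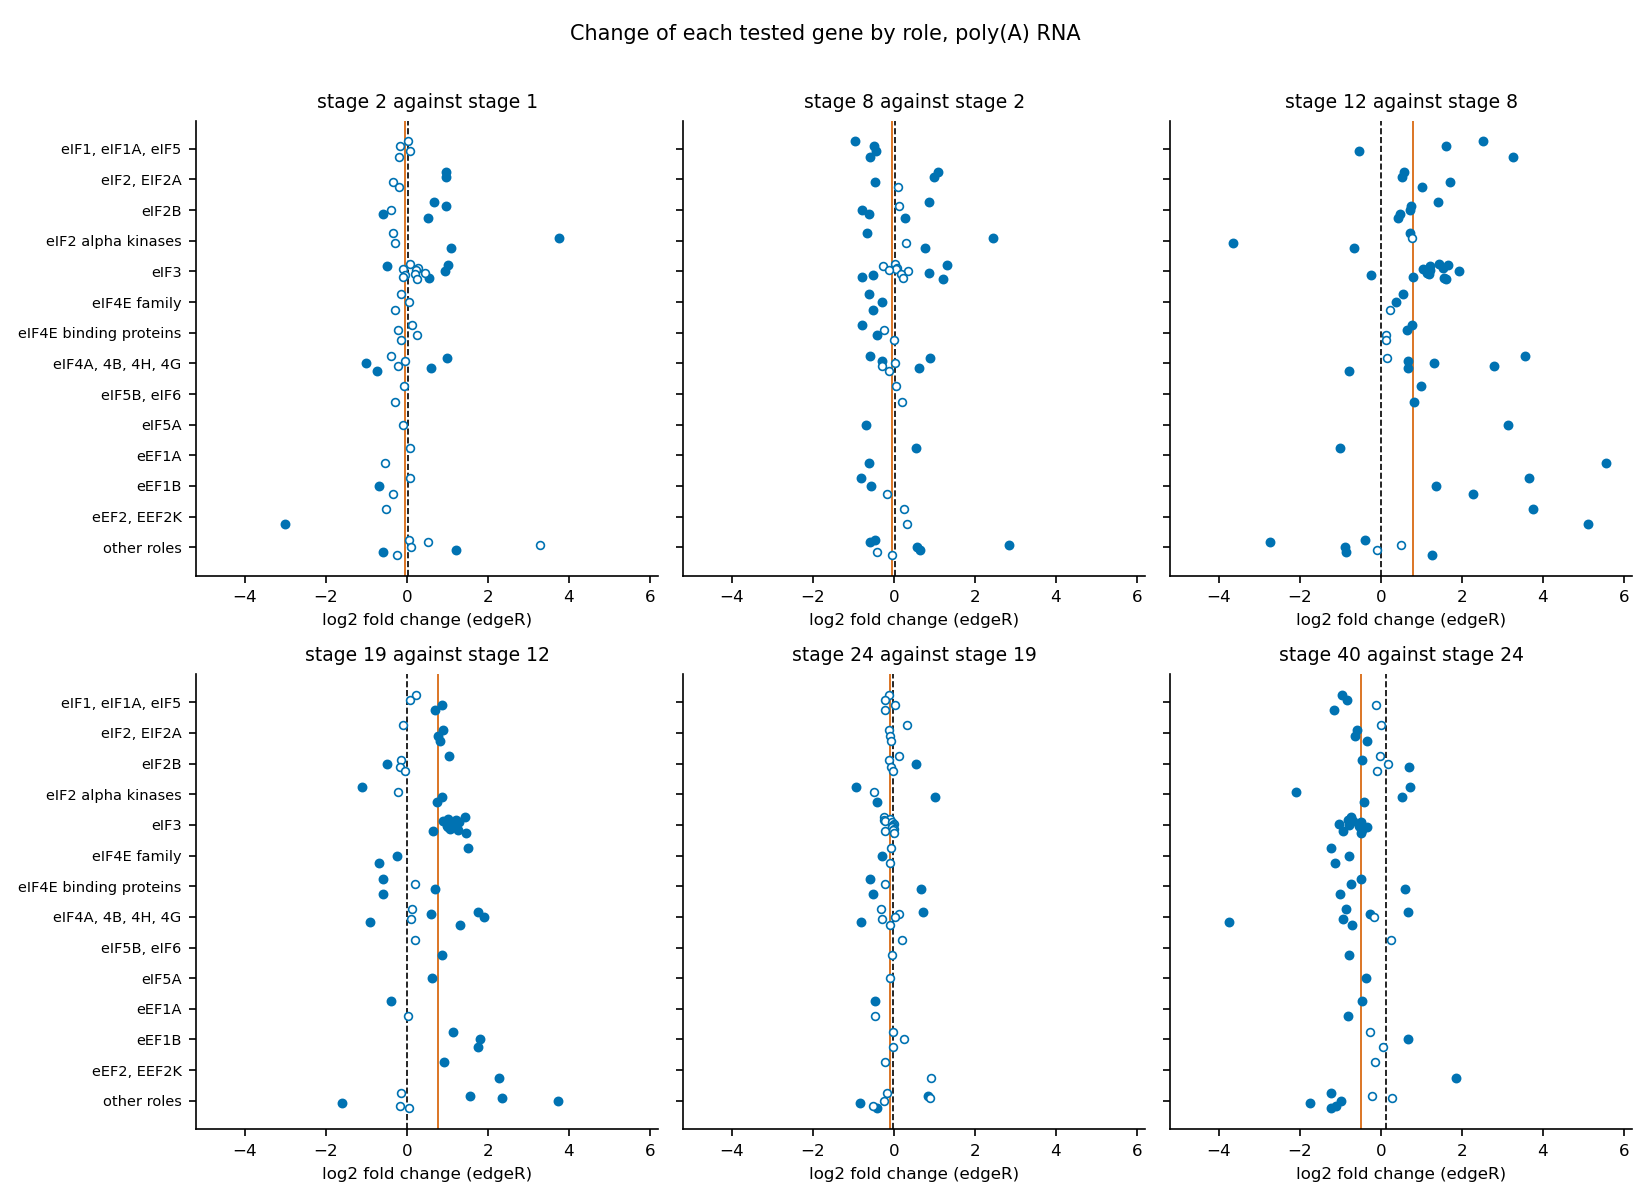
Log2 change of each tested member by role in 6 comparisons of poly(A) stages, with filled points for adjusted p under 0.05 and open points for the rest. The orange line is the members' median and the dashed black line that of all genes. They lie at 0.80 and 0 from stage 8 to 12, and at −0.50 and 0.12 from stage 24 to 40. From stage 8 to 12, library size alone gives 20 members called higher and 21 lower, with the median of all genes at −0.863.

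The shorter steps place the start of the rise. From stage 8 to 9, 8 members were called higher against 4.02% of all genes, namely EEF1A2, EEF2, EIF4A1, EIF5, EIF1, EEF1B2, EIF5A2 and EIF3A, and 5 were called lower against 11.8%. The higher count was 13 with size factors, 20 with the DESeq2 Wald test and 23 in the fit of these 2 stages alone. All genes were not counted under these 3 settings, so those counts cannot be set against the 4.02%. The call of EIF3A was lost under library size alone and without replicate 2 or 3 of either stage, and that of EEF1B2 without replicate 3 of either stage. From stage 9 to 10, 9 were called higher against 1.83% of all genes and 2 lower against 1.89%. Those 9 calls rest on replicate 1 of stage 10, which was the highest of its stage in each of them, as with EEF1A2 at 4418 TPM beside 2734 and 2825, and without that embryo no member was called in either direction. From stage 10 to 11 no member was called by edgeR or by DESeq2, where 0.0554% of all genes were called higher and 0% lower, and 6 members had an unadjusted p under 0.05. The 2 embryos of stage 11 lay far apart, EEF1A2 at 2754 and 5985 TPM, and without replicate 2 there were 9 calls higher and 1 lower, from a single embryo assumed to vary like those of the other stages. From stage 11 to 12, 34 were called higher against 16.3% and 3 lower against 21%, and from stage 12 to 14, 34 were called higher against 27.4% and 5 lower against 24.9%. Library size alone gave 13 higher and 19 lower from stage 11 to 12.

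Among the factors of start codon scanning, EIF1 and EIF5 rose from stage 8 to 12 and EIF1B fell. EIF1, which keeps the scanning ribosome open until the start codon is met, had 1002, 941 and 934 TPM at stage 8 and 2764, 2982 and 2796 at stage 12, and rose 5.78-fold. EIF5, which triggers GTP hydrolysis on eIF2, had 532, 493 and 466 TPM and then 2479, 2321 and 2527, a 9.58-fold rise. In both genes the stages did not overlap. EIF1B, the close relative of EIF1, had 571, 565 and 572 TPM at stage 8 and 204, 189 and 209 at stage 12, again with no overlap, and fell by 0.54 ± 0.17. Its share of the EIF1 and EIF1B total went from 37.3% ± 0.872 at stage 8 to 6.60% ± 0.548 at stage 12. EIF1B then rose by 0.86 ± 0.17 from stage 12 to 19, and EIF1 fell by 0.97 ± 0.16 from stage 24 to 40. The EIF1B share stood at 18.0% ± 0.204 at stage 40.

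The factor eIF1A is listed almost wholly under the name EIF1AY, with a mean of 996 TPM at stage 1 and 739 at stage 40, while EIF1AX stood at or near 0.

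eIF2 and its exchange factor eIF2B moved more modestly. From stage 8 to 12 all 4 genes of the eIF2 group were called higher, where 31% of all genes were. They are the 3 subunits of eIF2 and EIF2A, an alternative carrier of the initiator tRNA. The beta subunit EIF2S2 led with a rise of 1.71 ± 0.13. Under library size alone 1 of the 4, EIF2S2, was called higher. Mean TPM fell for 2 of the 4, from 347 to 256 for EIF2S1 and from 70.2 to 53.4 for EIF2A. It rose for the other 2, EIF2S2 and EIF2S3. The EIF2S1 and EIF2A calls both ended when stage 8 lost its replicate 3, and likewise when stage 12 lost its replicate 1. That of EIF2S1 also rested on stage 8 replicate 2, and that of EIF2A on stage 12 replicate 3. EIF2S1, the alpha subunit that the eIF2 kinases phosphorylate, gained earlier in poly(A) RNA. It had 74.1 and 64.5 TPM at stage 1 and 378, 332 and 331 at stage 8. At stage 2 its embryos had 85.7, 83.4 and 251 TPM, so that replicate 3 lay far above the other 2, and its rise of 0.97 ± 0.25 from stage 1 to 2 became 0.35 and was no longer called without that embryo. The call was also lost without replicate 2 of stage 1 and in the fit of these 2 stages alone. In total RNA, which is normalized separately, EIF2S1 had a mean of 193 TPM at stage 1 and 204 at stage 2, and was not called. The 5 subunits of eIF2B, which must assemble to recharge eIF2, were strongly unequal in poly(A) RNA at stage 1 and less so later. EIF2B1 had 3.91 and 5.30 TPM at stage 1 beside 230 and 220 for EIF2B4. The highest of the 5 exceeded the lowest 50.2-fold ± 12.4 at stage 1, 7.42-fold ± 1.46 at stage 8, 4.22-fold ± 0.385 at stage 12, 2.26-fold ± 0.142 at stage 19 and 3.42-fold ± 0.0555 at stage 40. In total RNA the same ratio was 10.4 ± 2.07 at stage 1 and 13.7 ± 2.42 at stage 2. All 5 were called higher from stage 8 to 12, where 31% of all genes were, but with library size alone none was higher and 2 were lower.

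**Figure D4:**
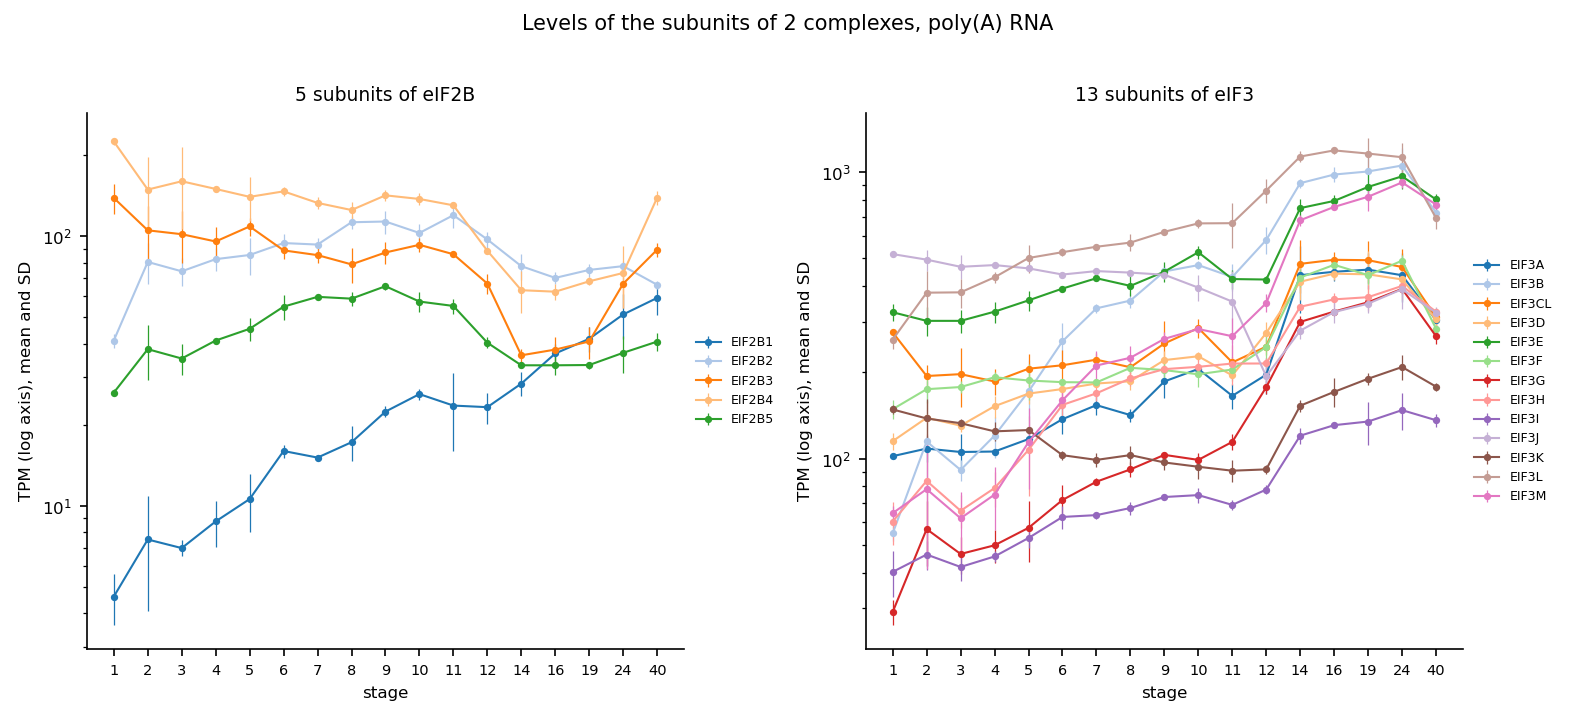
Mean and SD of TPM on a log axis by poly(A) stage for the 5 eIF2B subunits and the 13 eIF3 subunits. The spread between the highest and lowest eIF2B subunit narrows from 50.2-fold at stage 1 to 2.26-fold at stage 19. That of eIF3 goes from 17.9-fold at stage 1 to 8.45-fold at stage 8 and is wider again at stage 12. The eIF3 means run from 77.9 (EIF3I) to 863 TPM (EIF3L) at stage 12, and from 136 (EIF3I) to 803 (EIF3E) at stage 40.

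The kinases that switch eIF2 off went different ways. EIF2AK3, or PERK, which answers unfolded protein in the endoplasmic reticulum, had 131, 163 and 177 TPM at stage 8, 42.5, 41.9 and 36.9 at stage 9, and 6.56, 6.37 and 6.18 at stage 12. No embryo of one stage reached those of the next, and the fall from stage 8 to 12 was 3.65 ± 0.19 or 12.6-fold, the largest fall of any member there. It rose again by 1.03 ± 0.18 from stage 19 to 24, to 21.8, 21.2 and 26.5 TPM. EIF2AK1, the heme-regulated kinase, fell 2.14-fold from stage 12 to 19, then by 0.94 ± 0.19 to stage 24, then rose by 0.73 ± 0.19 to stage 40. EIF2AK4, or GCN2, which senses uncharged tRNA, had 13.65 and 12.99 TPM at stage 1 and 22.5, 22.7 and 40.7 at stage 2, with no overlap and a rise of 1.08 ± 0.17 that was not called in the fit of these 2 stages alone. In total RNA it had 52.1 and 50.6 TPM at stage 1 and 49.6, 49.3 and 54.6 at stage 2, which overlap. EIF2AK2, or PKR, which binds double-stranded RNA, had 3.48, 5.00 and 2.97 TPM at stage 24 and 0.924, 0.898 and 1.29 at stage 40, with no overlap, and fell by 2.11 ± 0.44.

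eIF3, the large factor that holds the small subunit, rose nearly as a whole after the blastula. From stage 8 to 12, 12 of its 13 tested genes were called higher, where 31% of all genes were with TMM scaling. Under library size alone 7 were called higher. EIF3D led in significance with 1.52 ± 0.11. The exception was EIF3J, the loosely attached subunit, which fell by 0.24 ± 0.09 (edgeR adjusted p = 0.0195) and was not called under size-factor scaling. From stage 12 to 14 and from stage 12 to 19 all 13 were called higher under each of the 3 scalings. Of all genes, 27.4% and 32.8% were called higher in these steps with TMM scaling. From stage 19 to 24 none was called in either direction, where 11% of all genes were called higher and 13.1% lower. From stage 24 to 40 all 13 were called lower, where 30.9% of all genes were, and 6 of the 13 under library size alone. EIF3B, a core subunit, had 381, 342 and 346 TPM at stage 8, 544, 543 and 653 at stage 12, and 828, 1146 and 1044 at stage 19.

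For the cap-binding step, EIF4E came to hold the largest share of the 3 family members measured, EIF4E, EIF4E2 and EIF4E3, after gastrulation. EIF4E1B, the oocyte form of other vertebrates, was not analysed here, so the shares leave it out. EIF4E had 50.3, 49.7 and 49.8 TPM at stage 12 and 97.3, 96.6 and 101 at stage 14, with no overlap and a rise of 1.25 ± 0.09. From stage 8 to 12 its fitted change was 0.54 ± 0.09, but it was −0.438 under library size alone, so its direction there depends on the scaling. EIF4E3, a divergent relative, had 229, 223 and 226 TPM at stage 8, and 72.1, 74.7 and 70.9 at stage 19. EIF4E3 fell by 0.70 ± 0.12 from stage 12 to 19. EIF4E2, which binds the cap without recruiting eIF4G and so represses, had 66.4, 72.7 and 60.8 TPM at stage 12 and 48.2, 48.1 and 48.3 at stage 19, and its fitted change of −0.25 ± 0.08 is smaller than the 0.284 by which size factors shift all genes in that comparison. EIF4E was 16.98% ± 0.456 of the 3 genes' TPM at stage 8, 19.7% ± 1.14 at stage 12, 40.04% ± 2.58 at stage 14 and 50.1% ± 0.717 at stage 19. EIF4E3 went from 57.5% ± 1.03 at stage 8 to 29.97% ± 0.554 at stage 19. From stage 24 to 40 all 3 were called lower under each scaling, EIF4E by 1.22 ± 0.09. Of all genes, 30.9% were called lower in that step with TMM scaling.

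The ratio of the eIF4E binding proteins to their target was highest up to stage 12. The summed TPM of EIF4EBP1, EIF4EBP2 and EIF4EBP3 was 14.6 ± 0.369 times that of EIF4E at stage 8 and 16.2 ± 0.564 times at stage 12, then 7.09 ± 0.245 times at stage 14, 4.61 ± 0.142 times at stage 24 and 7.51 ± 0.433 times at stage 40. EIF4EBP1 had 401, 412 and 321 TPM at stage 12 and 258, 185 and 202 at stage 19, without overlap, and fell by 0.60 ± 0.16, a call lost under size-factor scaling. EIF4EBP3 went the other way, from 48.3, 47.2 and 50.3 TPM at stage 24 to 84.8, 87.0 and 87.2 at stage 40, a rise of 0.60 ± 0.15. EIF4ENIF1, a shuttle and repressor that binds eIF4E, fell at each step from stage 12 to 19, 24 and 40, by 0.59, 0.52 and 1.00, though the step from stage 19 to 24 was not called under library size alone.

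Of the helicase and scaffold genes, EIF4A1 carried the rise and EIF4A2 stayed faint. EIF4A1 had 486, 391 and 392 TPM at stage 8 and 2464, 2614 and 2645 at stage 12, with no overlap and an 11.9-fold rise. EIF4A2 never passed 5.95 TPM, though it rose from stage 12 to 19 by 1.76 ± 0.23. EIF4G2, a relative of eIF4G without an eIF4E site, rose by 2.79 ± 0.19 from stage 8 to 12, and EIF4G1 by 1.89 ± 0.21 from stage 12 to 19. EIF4G3 had 6.40, 3.75 and 2.84 TPM at stage 24 and 0.242, 0.507 and 0.400 at stage 40. These embryos did not overlap, and the fall was 3.75 ± 0.24 or 13.4-fold. Its share of the 3 eIF4G genes went from 6.74% ± 0.388 at stage 8 to 0.0732% ± 0.0288 at stage 40. EIF4H, which helps eIF4A unwind, had 179, 179 and 190 TPM at stage 8 and 60.6, 49.9 and 51.5 at stage 12 and was called lower.

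EIF5B, which joins the ribosomal subunits, and EIF6, which keeps the large subunit from joining too early, were both called higher from stage 8 to 12. The fitted change of EIF5B, 0.99 ± 0.15, lies close to the shift of all genes under library size alone. For EIF6 the fitted change was 0.82 ± 0.11, and it became −0.154 under library size alone.

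Late in development most members declined. From stage 24 to 40, 42 of the 61 were called lower against 30.9% of all genes and 7 higher against 37.7%, with a member median of −0.50 beside 0.12 for all genes. Library size alone left 24 lower and 11 higher. EIF5, at 3588, 3079 and 3147 TPM at stage 24, had 1884, 1618 and 1696 at stage 40, with no overlap and a fall of 1.16 ± 0.18. The 7 that rose were EEF2K, EIF2AK1, EIF2B4, EIF4A2, EEF1D, EIF4EBP3 and EIF2AK3. In the step before, from stage 19 to 24, 5 of the 61 were called higher and 9 lower, shares near the 11% and 13.1% of all genes. Without replicate 3 of stage 24 there were 2 and 2, with 4 of the 14 calls kept, while the lower count was 4 under library size alone and 3 in the fit of these 2 stages alone.

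During cleavage members were called in both directions, with a balance that depends on the scaling. From stage 2 to 8, 15 of the 61 were called higher, a share near the 24.9% of all genes. Another 23 were called lower, a larger share than the 18.9% of all genes. Library size alone turned these counts to 26 higher and 7 lower. Without replicate 2 of stage 2 the lower count was 12. EIF3M, a subunit of eIF3, had 50.7, 63.7 and 120 TPM at stage 2 and 238, 238 and 200 at stage 8, without overlap, and rose by 1.20 ± 0.20. EIF1 fell by 0.95 ± 0.16 and EIF4EBP1 by 0.79 ± 0.16. In total RNA, which is normalized separately, EIF3M had a mean of 278 TPM at stage 2.

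Stage 2 against stage 1 asks what changes in the first divisions, and both kinds of library cover it. In poly(A) RNA, 13 of the 61 tested members were called higher and 7 lower. Both shares lay near those of all genes, which were 21.6% higher and 11.1% lower. In each of the 13, replicate 3 of stage 2 was the highest of its stage. EIF3B, for example, had 52.6 and 57.1 TPM at stage 1 and 71.3, 74.6 and 198 at stage 2. Without that embryo 8 were called higher and 1 lower, and 9 of the 20 calls were kept. In the fit of these 2 stages alone 1 was called higher and 2 lower. Other settings raised the lower count, to 16 with size factors, 13 with library size alone and 20 with the DESeq2 Wald test. In total RNA no member was called by edgeR, where 1.44% of all genes were called higher and 0.543% lower, while 9 members had an unadjusted p under 0.05 and DESeq2 called 2, EIF4B and EIF3J.

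The difference between the 2 kinds of library was tested directly. EIF3G, an RNA-binding subunit of eIF3, had 31.1 and 27.1 TPM at stage 1 and 42.7, 55.8 and 71.7 at stage 2 in poly(A) RNA. In total RNA it had 43.5 and 42.9 TPM and then 39.5, 43.9 and 39.5, so the stages were apart in the first kind and overlapped in the second. Its change differed by 0.98 ± 0.26 (edgeR adjusted p = 0.0487). EIF4G1, the main scaffold, had 32.0 and 34.0 TPM at stage 1 and 13.3, 21.1 and 14.3 at stage 2 in poly(A) RNA, and 11.6 and 14.0 and then 15.0, 14.8 and 14.3 in total RNA. The stages were apart in both kinds, with stage 2 lower in poly(A) RNA and higher in total RNA. Its change differed by −1.26 ± 0.29 (edgeR adjusted p = 0.0367). Leaving out any 1 total RNA library or either poly(A) library of stage 1 ended both calls, and leaving out a library of stage 1 left 1 in its group, assumed to vary like those of the other stages. The EIF3G call was also lost under library size alone and without the filter on low counts. Over all genes 4.95% were called higher in this test and 3.51% lower, and DESeq2 called 6 members. The TPM levels of the 2 kinds of library were normalized separately, whereas the test scaled the counts of both kinds in 1 fit. Only their changes are compared.

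**Figure D5:**
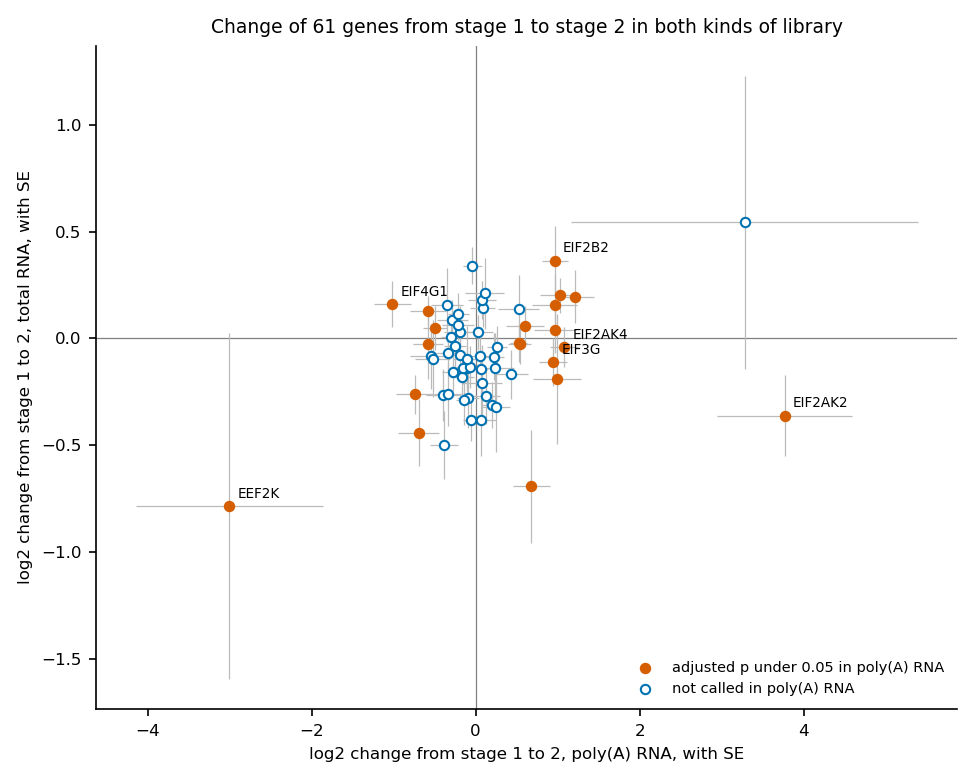
Log2 change from stage 1 to stage 2 in poly(A) RNA against that in total RNA for 61 members, with SE bars and filled orange points for those called in poly(A) RNA. The changes of EIF4G1 and EIF3G were called different between the kinds by edgeR, with differences of −1.26 and 0.98. Also labelled are EIF2AK2, EEF2K, EIF2AK4 and EIF2B2, which edgeR did not call in that test, while DESeq2 called EIF2AK2 and EIF2AK4.

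The genes known for other roles had some of the largest changes. EIF2C2, an Argonaute gene, had 1.60, 1.44 and 2.32 TPM at stage 12 and 16.5, 25.9 and 18.5 at stage 19, with no overlap and a rise of 3.73 ± 0.23 or 13.2-fold. EIF2C4, another Argonaute gene, had 615 and 633 TPM at stage 1, 384, 402 and 425 at stage 8 and 88.9, 114 and 139 at stage 12, and was called lower from stage 8 to 9. EIF1AD, named for a domain like that of eIF1A, had 43.9, 33.3 and 37.0 TPM at stage 8 and 2.93, 2.81 and 3.02 at stage 12, a fall of 2.73 ± 0.24. EIF4A3, a core protein of the exon junction complex, fell by 1.22 ± 0.12 from stage 24 to 40.

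Other genes of cytosolic translation gave a point of comparison. The first list held release and recycling factors, poly(A)-binding proteins, signalling kinases and other regulators. Of 35 tested in it, 19 were called higher and 7 lower from stage 8 to 12. These are 54.3% and 20%, beside 31% and 31.5% of all genes with TMM scaling. Under library size alone 6 were higher and 19 lower, and all genes were not counted there. From stage 12 to 19, 19 were higher and 4 lower, where 32.8% and 32.5% of all genes were. Of 11 mitochondrial translation factors, 4 were higher and 3 lower from stage 8 to 12. The shares of 36.4% and 27.3% lay near the 31% and 31.5% of all genes with TMM scaling. Under library size alone 1 was higher and 7 were lower, again without a count of all genes. The difference between these lists and the members was not tested.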

How the data were processed

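RNA of single axolotl embryos was sequenced as poly(A)-selected paired-end libraries and, for stages 1 and 2, as single-end libraries depleted of ribosomal RNA, per the labels' protocols. The deposited tables hold estimated counts and TPM per gene. The submitters' processing notes name RSEM 1.1.6 and Bowtie 0.12.1. The sources used here do not give the reference or how transcripts received gene names. The TPM values were deposited by the authors and are used here as levels. The authors' expected counts were rounded to whole numbers, and genes with low counts were left out with filterByExpr, which kept 14437 poly(A) and 11419 total RNA genes.

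Changes were tested with edgeR 4.0.16 (R 4.3.3, limma 3.58.1) by its quasi-likelihood test, two-sided, with TMM scaling, all 17 poly(A) stages in 1 fit, and Benjamini-Hochberg adjustment over all genes at 0.05. A standard error is the log2 change divided by the square root of F. The difference between library kinds was an interaction term. It came from 1 joint fit of the stage 1 and 2 libraries of both kinds, filtered and scaled together, with 11881 genes. Alternatives were DESeq2 1.42.0, its size factors, library size alone, no filter, the compared stages alone, a replicate block, and 46 refits that each left out 1 library. Those refits kept the genes and the negative binomial dispersion trend of the full fit, while scaling and quasi-likelihood dispersions were refitted. The functions were tested on simulated data. No 2 libraries of a stage agreed within sampling noise, with a chi-square of at least 5.7 for each degree of freedom over 51 pairs.

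The members and lists were chosen with earlier results of these data known. The named members were the fixed pairs of related genes, the 3 largest changes each way with a mean TPM of 10 or more, and the smallest adjusted p of each role. Others are named to complete a role, or after their values were seen. Of the 63 symbols, 56 matched a RefSeq symbol. No sequences or coordinates are printed, since the build is not named.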

Additional observations from a re-analysis of the deposited data

Results flagged for a closer look

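Between stages 1 and 2, 2 of the 61 tested members changed differently in poly(A) RNA and in total RNA by the test of the difference itself. That was 1 called higher, where 4.95% of all genes were, and 1 called lower, where 3.51% were, so such calls were not more frequent among the members. For EIF3G, a subunit of eIF3, the poly(A) change exceeded the total RNA change by 0.98 on the log2 scale. For EIF4G1, the main scaffold of the cap-binding complex, the difference was −1.26. Leaving out either poly(A) library of stage 1 or any 1 of the 5 total RNA libraries ended both calls, and so did leaving out replicate 1 of stage 2 for EIF4G1. The EIF3G call was also lost under library size alone (edgeR adjusted p = 0.0858) and without the filter on low counts (edgeR adjusted p = 0.0515).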

How the results depend on the processing

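Counts are of members called, higher then lower unless said. Shares of all genes were not counted under these settings. Dividing by library size alone moved 15 of the 26 counts beyond 1.5 times: from stage 1 to 2 lower to 13, from stage 2 to 8 to 26 and 7, from stage 8 to 12 to 20 and 21, from stage 19 to 24 lower to 4, from stage 24 to 40 to 11 and 24, from stage 9 to 10 lower to 0, from stage 11 to 12 to 13 and 19, from stage 12 to 14 lower to 12, in total RNA higher to 1, and in the difference between library kinds to 0 and 3. It also reversed 6 fitted changes: from stage 8 to 12 EIF6 to −0.154, EIF4EBP1 to −0.209, EIF4G3 to −0.301, EIF4EBP2 to −0.333 and EIF4E to −0.438, and from stage 24 to 40 EIF5A2 to 0.052. Library size alone shifts the median of all genes by −0.863 from stage 8 to 12 and by 0.418 from stage 24 to 40. The shift is only −0.0167 from stage 1 to 2 and −0.0844 from stage 9 to 10. The part of such shifts in the moved counts was not tested. DESeq2 size factors gave 16 lower from stage 1 to 2, 5 lower from stage 12 to 19, 13 higher from stage 8 to 9, 2 lower from stage 12 to 14, and 2 higher in the difference between library kinds. The DESeq2 Wald test gave 20 lower from stage 1 to 2, 5 lower from stage 12 to 19, 20 higher from stage 8 to 9, 2 lower from stage 12 to 14, 1 and 1 in total RNA, and 4 and 2 in the difference. Fitting the compared stages alone gave 1 and 2 from stage 1 to 2, 7 higher from stage 2 to 8, 3 lower from stage 19 to 24, 23 higher from stage 8 to 9, and 0 and 0 from stage 9 to 10. For these 3 alternatives the cause was not tested.

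Stages 1 and 11 have 2 libraries, so leaving out 1 leaves a lone embryo that is assumed to vary like those of the other stages. With 1 library left out in turn, the counts ranged from 8 to 14 higher and 1 to 14 lower from stage 1 to 2, from 11 to 17 and 12 to 26 from stage 2 to 8, from 42 to 44 and 9 to 10 from stage 8 to 12, at 37 and from 7 to 9 from stage 12 to 19, from 2 to 5 and 2 to 9 from stage 19 to 24, and from 6 to 7 and 37 to 40 from stage 24 to 40. For the shorter steps they ranged from 6 to 11 and 3 to 4 from stage 8 to 9, from 0 to 10 and 0 to 3 from stage 9 to 10, from 0 to 9 and 0 to 1 from stage 10 to 11, from 26 to 33 and 2 to 4 from stage 11 to 12, and from 33 to 35 and 2 to 4 from stage 12 to 14. In total RNA they were 0 to 1 and 0 to 10, the highest without stage 2 library b, and in the difference between kinds 0 to 6 and 0 to 4, the highest without poly(A) replicate 2 of stage 2. Without stage 1 replicates 1 and 2 the lower count from stage 1 to 2 was 2 and 4, without stage 2 replicates 2 and 3 it was 14 and 1, and without stage 2 replicate 2 that from stage 2 to 8 was 12. From stage 19 to 24, 2 were higher and 2 lower without stage 24 replicate 3, and 3 were higher without stage 19 replicate 3 or stage 24 replicate 2. From stage 8 to 9, 3 were lower without stage 9 replicate 3. From stage 9 to 10, stage 9 replicates 1 and 2 left 5 and 4 higher and 0 lower, replicate 3 left 1 lower. From stage 12 to 14, 3 were lower without stage 12 replicate 1 or 2, and 2 without stage 12 replicate 3 or stage 14 replicate 2.

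Replicate numbers were not taken to pair embryos: over 30 pairs of libraries the correlation of deviations ran from −0.437 to 0.706, with a median of 0.0368. For stage 12 against stage 11 the correlations were 0.156 and 0.248. A low correlation cannot show that embryos with the same number were unrelated. With the number as a block, 10 were lower from stage 1 to 2, 3 lower from stage 9 to 10, 33 higher from stage 11 to 12 and 4 lower from stage 12 to 14, all other counts were equal, and no named member gained or lost its call. No paired analysis was possible for total RNA or the difference between kinds because the labels do not say which embryo the number of a total RNA library refers to. The share of EIF4E1B was not analysed here. Depth limits mainly EIF2AK2, EIF2C1, EEF2K at early stages, EIF1AX and EIF5A.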
